A study of Mus with 2 samples.

Results

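The genes described here are 10 genes that mark dendritic cells or direct their development in marrow culture, namely Flt3, Zbtb46, Batf3, Irf8, Id2, Clec9a, Cd209a, Cd24a, Xcr1 and Fscn1. They were chosen by name, with earlier results of these data known, and no threshold on their values was used. Among the 20144 genes with a probe matched by accession on the array, these 10 had 13 probes, each printed once. Of the 10 genes, 7 had a probe well above background on at least 1 array, and Clec9a, Cd209a and Xcr1 had none on either.

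BMDMs are macrophages grown from bone marrow, here from male C57BL6/J mice 10 weeks of age, by 7 d of culture with 10 ng/mL of M-CSF. Both groups were then kept under M2 conditions, which means 10 ng/mL of IL-4, for 24 h. One group received DMSO, the solvent, and the other received 10 µM of GW4064, a synthetic agonist of the bile acid receptor FXR, dissolved in DMSO. There was 1 array per group, so that no difference below has a replicate error or a p-value, and precision is limited by there being 1 array on each side. The title, source name and treatment label set the GW4064 array apart, whereas its free-text description repeats the one for DMSO. The direction of each difference below rests on those 3 labels. The sources used here do not say how many mice gave marrow, whether both cultures came from the same marrow, or that cells were sorted before RNA extraction.

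Conventional dendritic cells arise in bone marrow from progenitors that carry the receptor tyrosine kinase FLT3, under its ligand FLT3L. IRF8 and BATF3 are needed for the cDC1 branch, which takes up dead cells and presents their antigens to CD8+ T cells, and IRF4 acts in the cDC2 branch. M-CSF directs the same marrow towards macrophages, which share several of these transcription factors and the antigen presentation machinery with dendritic cells.

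The signal given below is the brightness of a spot after background subtraction by the scanner software, in intensity units. The log2 difference is GW4064 minus DMSO after both arrays were put on one scale by their 75th percentiles, at signals of 1209 (DMSO) and 1265 (GW4064). Summed signals of a list add all its measured probes before that scaling, so that bright probes and genes with several probes weigh most. The lowest signal well above background was 15.7 for DMSO and 15.1 for GW4064. Where a probe was dim on 1 array only, the difference is a bound, written as "at least N-fold", and the filter fixed its direction. For the 244 probes with 10 copies that both arrays read well above background, the SD of the log2 difference over the copies had a median of 0.079. This technical spread was larger for dim spots and is given beside each measured member as the median SD of copied probes within 1 log2 unit of its level. Probes of like signal are those within 0.5 log2 units. It measures printing, hybridization and reading, and not the spread between cultures.

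Under M2 conditions, GW4064 and DMSO gave near-equal signals for the transcription factor genes Batf3, Irf8 and Id2, which were read far above background on both arrays. Cd24a was 1.25-fold higher with GW4064, Zbtb46 was 1.26-fold higher by the probe read on both arrays, and Fscn1 was 1.72-fold lower. A single gene, Flt3, passed 2-fold, by 1 of its 2 probes and on a part of the slide with other large differences. In RNA from a whole culture, fewer cells of a type and less RNA per cell cannot be told apart. Of the 7 measured members, 1 was 2-fold or more higher, against 2.04% of the 13533 genes measured on the array. None of the 7 members was 2-fold or more lower, against 2.71% of all genes. In the direction alone, 5 members were higher and 2 lower, while 51.6% of all genes were higher and 48.2% were lower. Flt3 was measured only through the GW4064 array, so that its direction was fixed by the filter and adds nothing to this count. With the arrays centred instead on the added spike-in RNA, the median of all genes moved from 0.0069 to -0.17, and 4 members were higher and 3 lower.

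**Figure D1:**
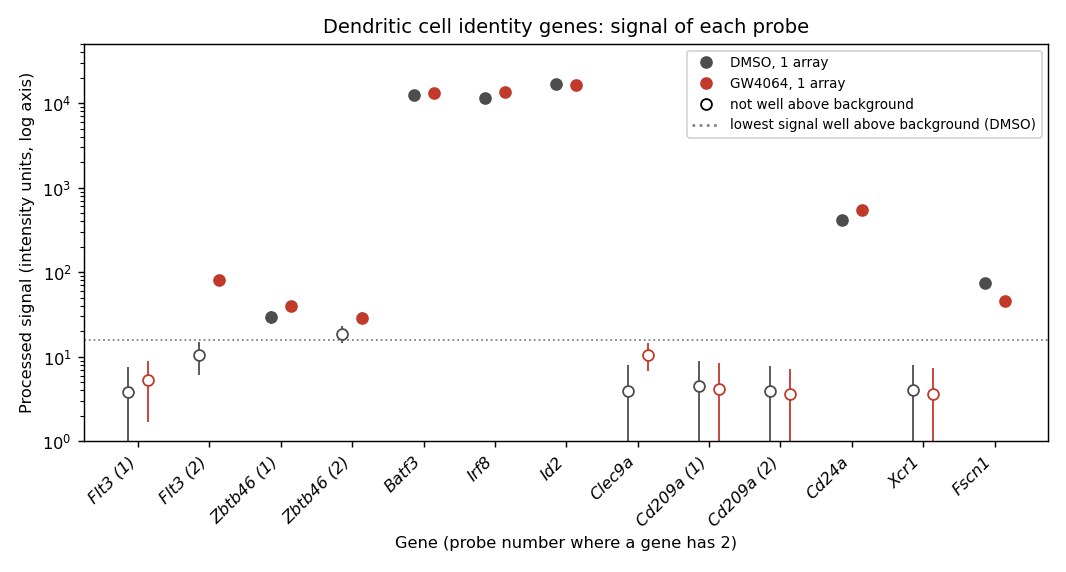
Processed signal of each of the 13 probes for the 10 genes, on a log axis in intensity units, with DMSO in grey and GW4064 in red (1 array each). Open points are not well above background, error bars are the scanner software's own error of the spot and run off the axis at a signal of 1, and the dotted line is the lowest signal well above background on the DMSO array. Batf3, Irf8 and Id2 lie at 11341 or above on both arrays, while all probes for Clec9a, Cd209a and Xcr1 stay below the line.

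Flt3 encodes the receptor through which FLT3L drives the expansion of dendritic cell progenitors, and it is also carried by early lymphoid and myeloid progenitors. The array had a pair of probes for it, both designed to transcript NM_010229. The first had a signal of 3.80 with DMSO and 5.31 with GW4064, neither well above background, so that it gave no difference. The second was dim at 10.5 with DMSO and well above background at 81.5 with GW4064. GW4064 was thus at least 4.94-fold above DMSO (2.31 on the log2 scale), with a technical spread of 0.27 at like signal. That spread was taken at the mean level of both arrays, and the DMSO spot was dimmer. The scanner software's own error of the log2 difference between both spots was larger, at 0.62. The 5th and 95th percentiles of 2399 probes of like signal were -1.60 and 1.41, and the bound lay above both. The second probe was measured only because the GW4064 array read it. The value of Flt3 thus rests on 1 probe, with no second reading of the gene.

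The surroundings of the second Flt3 spot differed between the arrays as well. Within 300 µm of it lay 58 other spots, whose median log2 difference was 0.62. Around the other 12 member spots that median lay between -0.19 and 0.084. Of the 58 spots, 3 differed 8-fold or more, and all 3 were brighter on the GW4064 array. Within 1000 µm there were 17 such spots among 650, with GW4064 the brighter side in 11 and DMSO in 6, around a median log2 difference of 0.067. Damaged areas, as the term is used here, are spots that had at least 2 such neighbours inside 300 µm, and they held 16.5% of all spots. With the damaged areas left out, Flt3 had no measured probe. The part of the slide surface in the Flt3 value was not tested.

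**Figure D2:**
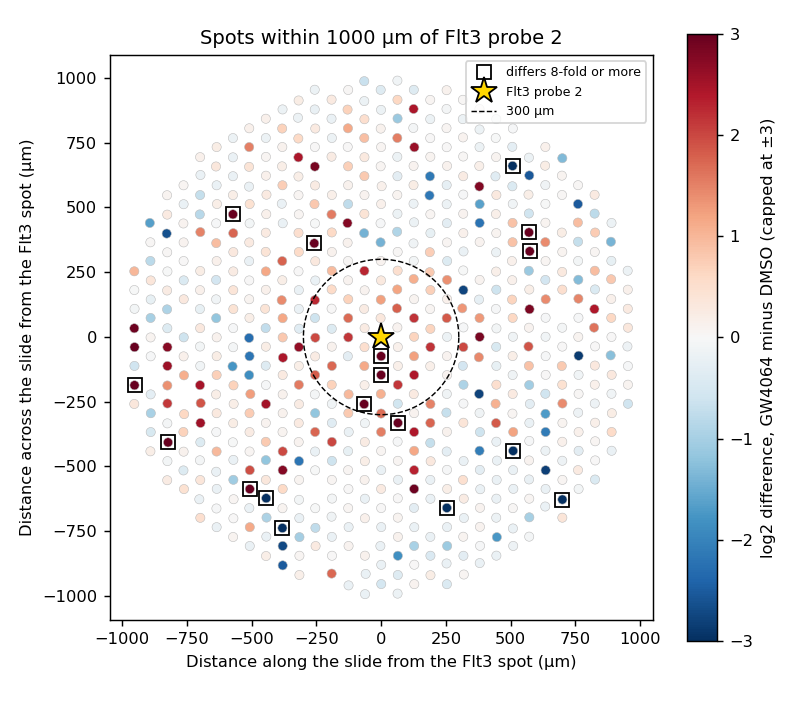
Spots within 1000 µm of the second Flt3 probe, by distance in µm from it, coloured by the log2 difference of each spot (GW4064 minus DMSO, capped at 3 in both directions). Squares mark spots that differed 8-fold or more and the dashed circle is 300 µm, inside which 3 such spots lie and the colours are mostly red (median 0.62 over 58 spots).

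FLT3L is the ligand of FLT3, and KIT, CSF1R, PDGFRA and PDGFRB are the related receptor kinases of the same class. The signal of Flt3l was 994 with DMSO and 746 with GW4064, a log2 difference of -0.48 (-0.65 by spike-in centring). Kit, carried by progenitors and mast cells, had signals of 37.9 and 23.8 and a log2 difference of -0.74, against a technical spread of 0.28. Csf1r, the receptor for M-CSF, was read far above background by each of 3 probes and had a mean log2 difference of -0.24, with the probes between -0.37 and -0.13. Pdgfrb, a gene of stromal cells, had signals of 85.2 and 52.8 and a log2 difference of -0.76, against a technical spread of 0.17. With the normexp background correction described below, Kit had -0.29 and Pdgfrb -0.36. The ligand of FLT3 and 3 of its related receptors gave lower values with GW4064, Kit and Pdgfrb at low signal. Pdgfra had 0.065 (-0.11 by spike-in centring) and Kitl, the ligand of KIT, had 0.30. None of these genes reached 2-fold.

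Zbtb46, a zinc finger repressor that marks conventional dendritic cells and their committed precursors among immune cells, was measured close to background. Its first probe had a signal of 29.8 with DMSO and 39.4 with GW4064, a log2 difference of 0.34 against a technical spread of 0.25. The scanner software's own error of this difference was 0.33. It lay between the 5th and 95th percentiles of 2379 probes of like signal, -1.42 and 1.09. The second probe had 18.8, not well above background, and 28.9, at a spot in a damaged area. That made it at least 1.47-fold higher (0.55 on the log2 scale), against a technical spread of 0.33 and a software error of 0.41. The same percentiles of 2446 probes of like signal were -2.19 and 1.83, so that both differences were common among dim probes. The second probe was measured only through the GW4064 array, so that its direction was fixed by the filter. The mean of both was 0.44 and rests in part on this bound. The normexp background correction, which adds an offset to every signal, brought the mean to 0.097.

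Batf3 and Irf8 are partners in the cDC1 programme, in which BATF3 pairs with JUN proteins and binds DNA together with IRF8. Irf8 is also a factor of monocytes and macrophages. The signal of Batf3 was 12411 with DMSO and 13328 with GW4064, a log2 difference of 0.037 against a technical spread of 0.070. This difference was lower than the spread, had the opposite sign by spike-in centring (-0.14), and came from a spot in a damaged area, around which the median difference was 0.0095. The signal of Irf8 was 11341 with DMSO and 13662 with GW4064, a log2 difference of 0.20 or 1.15-fold. That was above the technical spread of 0.069 but inside the range that held the middle 90% of 1416 probes of like signal, from -0.24 to 0.29. Centred on the spike-in RNA, the difference of Irf8 was 0.029.

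The partners and relatives of these factors were measured throughout. Batf and Batf2 had log2 differences of -0.15 and -0.12, and the JUN genes Jun, Junb and Jund lay between -0.085 and -0.0044. Of the 8 other IRF genes, 4 were higher and 4 lower, with a median of 0.013, which turned negative under other scalings and was -0.16 by spike-in centring. Irf7, the interferon-induced member, had the highest value at 0.51. Irf4 had the lowest at -0.48, from signals of 2826 and 2125, at a spot in a damaged area. The IRF factors of the cDC1 and cDC2 branches thus gave values on opposite sides of 0, by 0.20 for Irf8 and -0.48 for Irf4, each from 1 spot per array.

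ID2 lacks a DNA-binding region and holds E proteins inactive, which favours conventional over plasmacytoid dendritic cells. Its signal was 16841 with DMSO and 16476 with GW4064, a log2 difference of -0.097 against a technical spread of 0.067. No other spot within 1000 µm differed 8-fold or more, and the median difference of the spots around it was -0.095, close to its own. The E protein genes Tcf3, Tcf4 and Tcf12 had 0.070, -0.0058 and 0.043, and each had the other sign under another scaling. Among the other ID genes, Id1 was 1.48-fold lower, from signals of 898 and 637. Id4, read only with DMSO at a signal of 24.5, was at least 1.70-fold lower, a direction fixed by the filter.

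**Figure D3:**
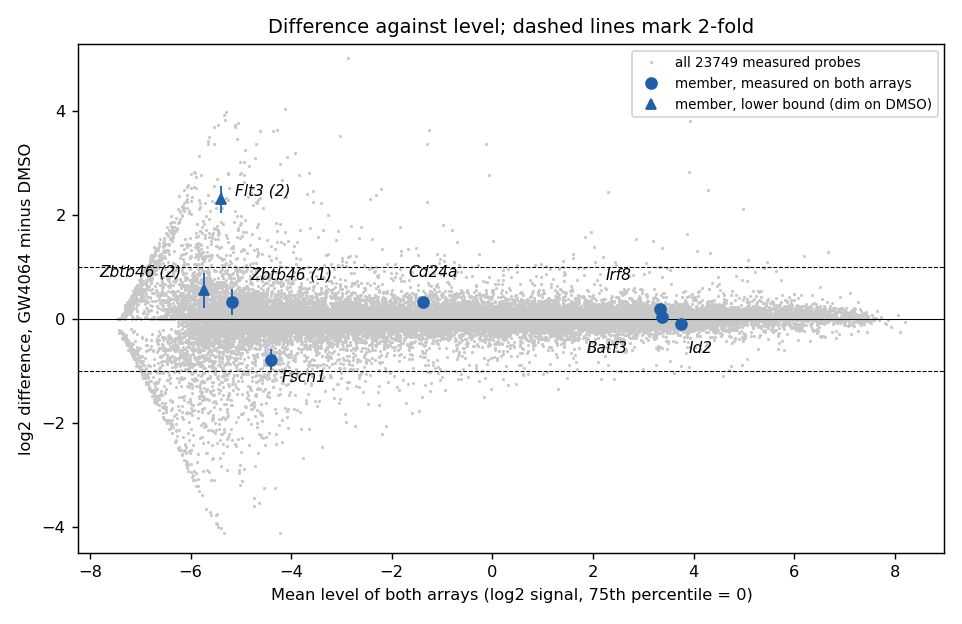
Log2 difference (GW4064 minus DMSO) against the mean level of both arrays in log2 units, for all measured probes (grey) and the 8 measured probes of the members (blue). Circles are members measured on both arrays, triangles are lower bounds, error bars are the technical spread at like signal, and dashed lines mark 2-fold. The probes for Batf3, Irf8 and Id2 sit at the narrow bright end, between -0.097 and 0.20, and Flt3 sits alone among the members above 2-fold, at the dim end where the grey points spread most.

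The surface proteins were mostly dim. CLEC9A, a marker of cDC1, is the receptor by which they sense exposed actin of dead cells. XCR1, another marker of cDC1, is the chemokine receptor that draws them to XCL1-producing T and NK cells. The signal of Clec9a was 3.99 with DMSO and 10.6 with GW4064, and that of Xcr1 was 4.0 and 3.65. Neither gene was well above background on either array, so that no fold is given. Cd209a, a C-type lectin of monocyte-derived dendritic cells and some cDC2, had signals of 4.50 and 4.21 on one probe and 3.94 and 3.61 on the other, again not well above background. These surface markers were thus not detectable in these cultures with or without the agonist, which at this sensitivity does not show that they were absent.

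Relatives of these receptors were read as follows. Of 5 other Cd209 genes with a usable probe, Cd209d and Cd209e were measured, and the others were not well above background. Cd209d had a log2 difference of -0.026, above 0 under another scaling. Cd209e, read only with DMSO at a signal of 21.2, was at least 1.47-fold lower, a direction fixed by the filter. Clec12a and the signalling kinase gene Syk, which acts downstream of CLEC9A, had 0.041 and 0.035, and both were below 0 by spike-in centring (-0.13 and -0.14). Clec1a had 0.50, and the 3 probes for Clec1b lay between -0.65 and 0.31 and did not agree in direction. Xcl1, the ligand of XCR1, was dim on both arrays, and so was Siglecg, the receptor of CD24.

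Cd24a encodes a glycosylphosphatidylinositol-anchored protein of cDC1, and also of neutrophils, erythroid precursors and B cells. Its signal was 415 with DMSO and 544 with GW4064, a log2 difference of 0.32 or 1.25-fold, against a technical spread of 0.078. The middle 90% of 2113 probes of like signal lay between -0.35 and 0.37, a range that holds this value. Among the 21707 probes measured on both arrays it stood at rank 1609 from the highest difference. Centred on the spike-in RNA it was 0.15. Genes of neutrophils and their precursors, which also carry CD24, had values of the opposite sign. All 8 that both arrays read were lower. Prtn3, read only with GW4064 at a spot in a damaged area, was at least 1.33-fold higher, a direction fixed by the filter. The 9 measured genes had a median of -0.65 and a summed signal of 14049 with DMSO and 9119 with GW4064. In the erythroid and B cell lists only Epor and Cd79b were read on both arrays, with -0.36 and -0.32. The part of these cells in the Cd24a value was not tested.

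Fscn1 encodes fascin, which bundles actin in the long projections of mature dendritic cells and is also made by fibroblasts. Its signal was 74.7 with DMSO and 45.4 with GW4064, a log2 difference of -0.79 or 1.72-fold lower, against a technical spread of 0.20. It was the member with the lowest difference, stood at rank 456 from the lowest of 21707 probes, and had no spot differing 8-fold or more within 1000 µm. The middle 90% of 2131 probes of like signal nevertheless lay between -1.07 and 0.70, so that a difference of this size was common among dim probes. It was -0.96 by spike-in centring and -0.49 after the normexp correction. Of 10 markers of stromal cells, 9 were measured, 7 of them lower and 2 higher, with a median of -0.72, the lowest for Postn at -1.11, and a summed signal of 38444 with DMSO and 21885 with GW4064. Lum was not well above background. The part of stromal cells in the lower Fscn1 signal was not tested. Of the other fascin genes, Fscn3 had 0.052, or -0.12 by spike-in centring, and Fscn2 was not well above background.

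**Figure D4:**
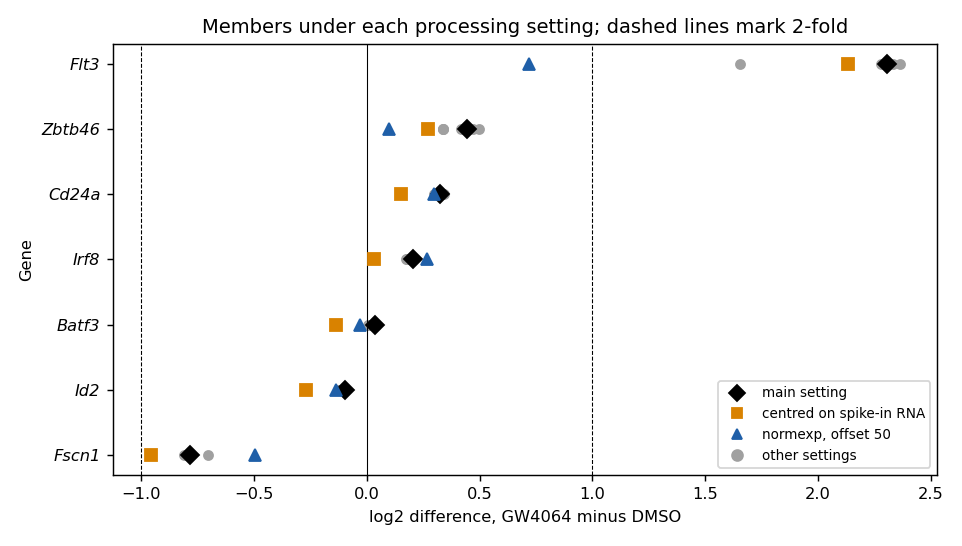
Log2 difference (GW4064 minus DMSO) of the 7 measured members under the main setting (diamond), with centring on spike-in RNA (square), with a normexp background correction (triangle) and under the other settings (grey). Dashed lines mark 2-fold. Flt3 runs from 0.72 to 2.36, Batf3 crosses 0, and Fscn1 stays between -0.96 and -0.49.

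Genes of the dendritic cell subsets outside the 10 members gave values on both sides of 0. Over the lists for cDC1, cDC2, plasmacytoid and mature dendritic cells together, 44 of 53 genes gave a value. Of these, 16 were above 0 and 28 below (9 and 35 by spike-in centring), beside 48.2% of all genes below 0. In either direction, 0 of the 44 were 2-fold or more apart, beside 2.04% of all genes higher and 2.71% lower. The median log2 difference of the 44 genes was -0.044, beside 0.0069 for all genes. Centred on the spike-in RNA it was -0.22, beside -0.17 for all genes.

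Of 12 further cDC1 genes, 6 were measured, 2 higher and 4 lower, or 0 and 6 by spike-in centring, and they lay between -0.34 and 0.034. Cadm1, an adhesion molecule of cDC1, had -0.10, and Tlr3, a receptor for double-stranded RNA, had -0.16. Naaa had -0.34 at a spot in a damaged area. Wdfy4, which serves cross-presentation, had -0.0022 as the mean of its probes and the other sign under another scaling. Of the rest, Cd8a, Tlr11, Gcsam, Clnk and Plet1 were dim on both arrays, like Clec9a and Xcr1.

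All 11 cDC2 genes were measured, 5 higher and 6 lower (3 and 8 by spike-in centring), and they spread more widely, from -0.89 to 0.99. The C-type lectin genes Mgl2 and Clec10a, which IL-4 also induces in macrophages, were the highest, with signals of 36153 and 74914 for Mgl2 and of 2421 and 4543 for Clec10a. Mgl2 was 1.98-fold and Clec10a 1.79-fold higher. Clec4a4, an inhibitory lectin of the cDC2 branch, was 1.85-fold lower, from 140 to 79.5, and Esam, an adhesion molecule of Notch-dependent dendritic cells, had -0.64, from 31.3 to 21.1. Among the regulators Klf4, Relb, Notch2 and Rbpj the values lay between -0.14 and 0.25.

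Of 10 genes of plasmacytoid dendritic cells, 8 were measured and all 8 were lower, beside 48.2% of all genes below 0. The median of the 8 was -0.12. Of the 8, Tlr9, Tcf4, Siglech and Ccr9 lay between -0.055 and -0.0058, within their technical spread. Tcf4 and Ccr9 were above 0 under another scaling. Siglech, a lectin of plasmacytoid cells that some macrophages also carry, had signals of 36735 and 37360 on its measured probe. Ly6d, from 70.6 to 40.0 at a spot in a damaged area, had -0.88. Pacsin1 had -0.36 by the probe read on both arrays and was at least 2.01-fold lower by the other, read only with DMSO. The direction of that other probe was fixed by the filter.

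The mature dendritic cell list had 19 measured genes, 9 higher and 10 lower, with a median of -0.00029. The median was 0.0097 after quantile normalization and -0.17 by spike-in centring, where 6 genes were higher and 13 lower. Ccl22 and Ccl17, chemokines that attract CCR4-bearing T cells, had 0.97 and 0.60. Ccl22 was a bound of at least 1.96-fold, read at 35.3 with GW4064, and came from a damaged area. Socs2, a feedback inhibitor of cytokine signalling, had a mean of 0.81 over 3 probes, and Cd83, which stabilizes MHC class II on the surface, had 0.68, from 3878 to 6516. On the other side, Il4i1, an amino acid oxidase induced by IL-4, was 1.85-fold lower, from 51337 to 29099. Ccr7, which guides mature dendritic cells to lymph nodes, had signals of 32.9 and 22.7 and a log2 difference of -0.60. Under the main setting, Fscn1 thus shared its sign with the 10 lower genes, among them Ccr7 and Il4i1. The 9 higher genes, among them Cd83, Socs2 and Ccl17, had the other sign, and this split depended on the scaling. The directions of Cacnb3, read only with DMSO and lower, and of Ccl22, read only with GW4064, were fixed by the filter.

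Of 19 genes that regulate dendritic cell development, 18 were measured, 5 higher and 13 lower (1 and 17 by spike-in centring), from -0.48 to 0.34. Spi1, the gene of PU.1, had -0.019, and the GM-CSF receptor genes Csf2ra and Csf2rb had 0.11 and 0.13, which became -0.066 and -0.046 by spike-in centring. Csf2 was not well above background. Cebpa had -0.44 at a spot in a damaged area.

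Of 9 genes for antigen presentation that dendritic cells and macrophages share, 8 were measured and all 8 were below 0 under each scaling, beside 48.2% of all genes below 0. The direction of Ciita, the master regulator of MHC class II, was fixed by the filter, since it was read only with DMSO. The median was -0.74, or -0.91 by spike-in centring. Dpp4 was dim on both arrays. B cells carry MHC class II too, and of their markers Cd79b, the one that both arrays read, had -0.32 and Ms4a1 and Ebf1 were read only with DMSO. The part of B cells in these values was not tested. H2-Ab1, a chain of MHC class II, passed 2-fold, with a mean log2 difference of -1.03 over both probes, and Itgax, the gene of CD11c, had the smallest difference at -0.30, at a spot in a damaged area. Irf8, whose product also acts at genes of antigen presentation, had 0.20 on the same arrays, or 0.029 by spike-in centring.

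**Figure D5:**
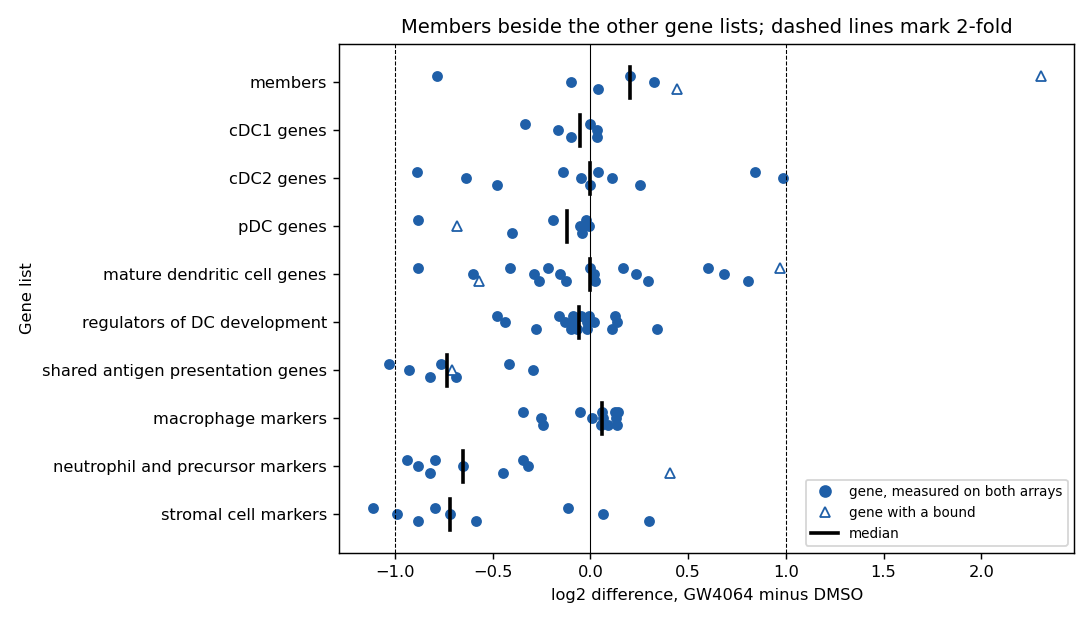
Log2 difference (GW4064 minus DMSO) of each measured gene of the members and of 9 other lists. Circles were measured on both arrays, open triangles rest on a bound, black bars are medians and dashed lines mark 2-fold. The 4 lists of dendritic cell subsets have medians between -0.12 and -0.00029, while antigen presentation, neutrophil and stromal genes lie mostly below 0.

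The cultures were checked against markers of macrophages. All 13 of the 14 macrophage markers with a matched probe, among them Adgre1, Csf1r, Lyz2 and the C1q genes, were well above background on both arrays. Of these, 9 were higher and 4 lower, from -0.34 to 0.14, and by spike-in centring 0 were higher and 13 lower. Their summed signal over 18 probes, not scaled between the arrays, was 474871 with DMSO and 462604 with GW4064. A single probe for Csf1r gave 169338 and 161892 of these sums. Among the 10 dendritic cell genes, Batf3, Irf8 and Id2 were read far above background in these cultures, Cd24a, Fscn1 and Zbtb46 at lower signals on both arrays, Flt3 with GW4064 only, and Clec9a, Xcr1 and Cd209a on neither array.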

How the data were processed

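RNA of BMDMs under M2 conditions was read on 1 Agilent 1-colour array for DMSO and 1 for GW4064. The authors deposited the intensity of each spot from Feature Extraction 10.7.1.1, background-subtracted and detrended within the array and not scaled between arrays, with the software's error of each intensity and the raw median intensity of spot and background. They also deposited a log2 table, whose difference between arrays equalled that computed here apart from a constant of 0.0022. The paper names GeneSpring for normalized and filtered data, and the normalization method is not given in the sources used here.

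The log2 intensity minus the 75th percentile of non-control spots was taken, marked spots (non-uniform or outliers among copies) were left out, spots of a probe and probes of a gene were averaged, and bounds replaced dim values. A probe with copies counted as well above background where at least 50% of its spots did. Of the 43020 spots per array, 0 were saturated. Both arrays shared a slide and a scan. Probes were matched by accession to RefSeq transcripts of GRCm38.p6. The array design names another build, so no coordinates are given, and no sequences were used.

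The members and lists were chosen with earlier results of these data known. Every member is named by every probe, with its family, partners and ligands, genes 2-fold or more apart and defining markers of high signal. Other genes of the dendritic cell and development lists were named after their values were seen. Of the calculations, only the step giving differences and bounds was tested, on simulated probe values with known changes. The simulated noise was below the technical spread of Flt3, Zbtb46 and Fscn1, so that the test does not cover these dim members. Tools were limma 3.58.1 in R 4.3.3 and, in Python 3.11.15, matplotlib 3.10.9, statsmodels 0.14.6, scipy 1.17.1, pandas 2.3.3 and numpy 2.4.6.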

Additional observations from a re-analysis of the deposited data

How the results depend on the processing

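No paired analysis was possible because DMSO and GW4064 had a single array apiece, and no replicate could be left out. Flt3 alone of the members was 2-fold or more higher, and this count became 0 with the normexp correction (offset 50 on the median intensity), 0 with only probes well above background on both arrays, 0 without the damaged areas, and 2 with no filter on dim probes, where Clec9a joined with a log2 difference of 1.34 between values not well above background. The count of members lower became 1 at a threshold of 1.5-fold. Flt3 had a log2 difference of 0.72 with normexp and 1.65 with no filter. With normexp, Zbtb46 had 0.097 and Fscn1 -0.49. Centred on the spike-in RNA, Batf3 had -0.14, Irf8 0.029, Id2 -0.27 and Cd24a 0.15. Their other differences moved by less than the technical spread, 66 of 74 in all. Flt3 had no value in 2 settings and Batf3 in 1, for want of a measured probe. Over the whole array 510 probes were 2-fold or more higher and 659 lower. These became 112 and 120 with normexp, 1637 and 1664 with no filter, 178 and 278 with probes well above background on both arrays, 277 and 338 without the damaged areas, 1117 and 1318 at 1.5-fold, and 118 and 156 at 4-fold. The cause was not tested, apart from the settings that leave out probes or change the threshold. Flt3, Zbtb46 and Fscn1 were read at low signal over background, and Flt3 and 1 probe for Zbtb46 in damaged areas.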

Other observations

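Markers of other cells were in part near the limit of detection. Of 6 NK cell markers, 2 were measured, Nkg7 and Klrb1c. Nkg7 was read far above background by 1 of its 2 probes, with signals of 3197 (DMSO) and 3066 (GW4064). Its log2 difference was -0.13. The probes for Klrb1c disagreed in size, the first at least 12.1-fold lower with GW4064, from a signal of 175 with DMSO, and the other 1.44-fold lower. Of 6 T cell markers, 4 were measured, 2 higher and 2 lower. In the B cell list Ms4a1 and Ebf1 were at least 2.47-fold and at least 2.22-fold lower, from signals of 35.8 and 41.3, both read only with DMSO, which fixed their direction. In the erythroid list Klf1, read only with DMSO, was at least 3.75-fold lower, from a signal of 54.2 at a spot in a damaged area, and Hbb-bt, read only with GW4064, was at least 1.61-fold higher, also in a damaged area. Of 6 basophil and mast cell markers, Prss34 and Gata2 were measured, the first at least 1.23-fold lower and the other with a log2 difference of 0.17.

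Flt3 was not the only gene with a large value from 1 probe. Among 5337 genes with 2 or more usable probes, 24 had a probe that was dim with DMSO and at least 4-fold higher with GW4064. In 13 of these every other probe of the gene was dim on both arrays, and in 14 the higher probe lay in a damaged area.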
